A study of Mus musculus with 6 samples.

Results

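The genes described here encode ubiquitin-specific proteases and OTU-domain proteases of the mouse, with 7 further deubiquitinases, and they were followed in purified platelets. They were picked by symbol, so OTU proteases of other names, such as Yod1, are not members. Members were the protein-coding genes whose symbol begins with Usp and a digit, Otud or Otub, plus Uchl1, Uchl3, Uchl5, Bap1, Cyld, Tnfaip3 and Stambp. The RefSeq table of the mouse genome held 73 such genes, of which 50 were among the 9822 genes of the deposited count tables. The other 23, which are Otub2, Otud3, Otud6a, Otud7a, Uchl1, Usp2, Usp9y, Usp13, 5 Usp17l genes, Usp26, Usp27x, Usp29, Usp35, Usp40, Usp43, Usp44, Usp49, Usp50 and Usp51, are not analysed here. Platelets came from BalB/c males heterozygous for the C587R change in Nxf1 (genotype Nxf1+/C587R), the principal export receptor for mRNA, and from wild-type littermates. PolyA RNA was sequenced from 3 mutant and 3 wild-type libraries, each a pool of suspensions of 1 genotype with CD41 on over 98% of cytometry events, and 1 pool of each genotype belonged to each of 3 batches, which the design ties to 3 preparation days. No Cre or transgene is named for the allele. The number of animals behind a pool is not stated in the sources. The labels list the wild-type libraries under a second series too, and p-values measure the spread between pools.

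Deubiquitinases cut ubiquitin from proteins and trim or take apart ubiquitin chains. They thereby reverse the marks that send proteins to the proteasome, sort receptors at endosomes, silence or open chromatin and switch inflammatory signalling on. Platelets have no nucleus, so their mRNA was made in megakaryocytes, and they retain working proteasomes and ubiquitin enzymes. Usp6nl is caught by its symbol but encodes a GTPase-activating protein for Rab proteins, and Usp39 encodes a spliceosome protein that lacks the catalytic residues.

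Libraries held 25189231 to 29421549 counts. Both batch 1 libraries stood apart, since 4 adult globin genes took 3.97% of counts in mutant batch 1 and 4.81% in wild-type batch 1, against 0.464% to 0.599% in the other mutant libraries and 0.518% to 0.673% in the other wild-type libraries. Counts are therefore also given without batch 1. All 10 platelet markers were present, 5 rose and 2 fell, with summed levels of 39589.4 to 43744.9 CPM (counts relative to the TMM-scaled library total) in mutant and 30902.1 to 37469.4 CPM in wild-type libraries. Of 11 B cell markers 4 fell, and the 11 summed to 273.8 to 344.4 CPM in the mutant and 350.0 to 469.3 CPM in wild-type libraries. Of 10 T cell markers 8 were present and 1 rose, with sums of 193.4 to 243.5 CPM in the mutant and 148.2 to 194.6 CPM in wild-type libraries, and Cd3e and Cd5 were not in the tables. Of 12 myeloid markers 7 were present, of which 1 rose and 1 fell, with sums of 1782.5 to 2094.7 CPM in the mutant and 1167.2 to 1606.8 CPM in wild-type libraries, and Mpo, Elane, Camp, Cd14 and Ngp were not in the tables. Of 8 erythroid markers 6 were present, summing to 3968.3 to 31513.2 CPM in the mutant and 4304.9 to 35714.0 CPM in wild-type libraries, and Ahsp and Hbb-bt were not in the tables. With the batch as a block, edgeR called 7 platelet markers higher and 2 lower, and 0 B cell markers higher and 8 lower. For T cell markers the counts were 1 higher and 3 lower, and for myeloid and erythroid markers 2 higher and 1 lower each. All genes stood at 22% higher and 18% lower in that fit. The part of these cell types in the results was not tested. Nxf1 itself had 2.95, 2.61 and 4.30 CPM in the mutant and 3.17, 3.08 and 4.94 CPM in wild-type batches 1, 2 and 3, and a log2 fold change of mutant over wild type, written LFC and given with its SE, of -0.19 ± 0.22 (edgeR adjusted p = 0.604). Without wild-type replicate 3 the LFC of Nxf1 was 0.08. A missense change need not alter a transcript's level, so this does not check the labels.

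Otud7b dominated the family in both genotypes. Otud7b (Entrez 229603, chromosome 3, 96104504 to 96161129, GRCm38) encodes Cezanne, which restrains noncanonical NF-kB signalling. Its level was 1328.1, 1281.3 and 1118.4 CPM in mutant libraries of batches 1, 2 and 3, against 1260.9, 1158.7 and 959.4 CPM in wild-type libraries. Levels thus lay near each other in every library, the genotypes overlapped, and batch 3 was lowest in both. Otud7b ranked 116th of all 9822 genes by mean CPM. It took 72.2% to 76.7% of the members' counts in mutant and 72.1% to 76.4% in wild-type libraries, deubiquitinases outside the rule not counted. Fitting gave an LFC of 0.14 ± 0.13, which did not pass (edgeR adjusted p = 0.484). It passed in 1 alternative, DESeq2 with the batch as a block (adjusted p = 0.016), over a range of 0.016 to 0.907.

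Per kb of the deposited gene length, Otud7b stood at 153.4 CPM per kb in mutant and 139.0 CPM per kb in wild-type platelets, and its mean over all libraries was 23.4 times that of the second member. That second member was Usp5, followed by Bap1, Otud5 and Usp25. Means of these 4 genes over the 6 libraries were 6.25, 6.05, 5.45 and 4.30 CPM per kb. The median member stood at 1.21 CPM per kb, beside 1.42 CPM per kb over all genes. Usp53, Usp42 and Usp37 were the lowest, at 0.163, 0.119 and 0.101 CPM per kb. In CPM, 25 members had a mean of at least 5 and 44 of at least 1, and 5 members were at or under 0.5 CPM in at least 1 library.

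**Figure D1:**
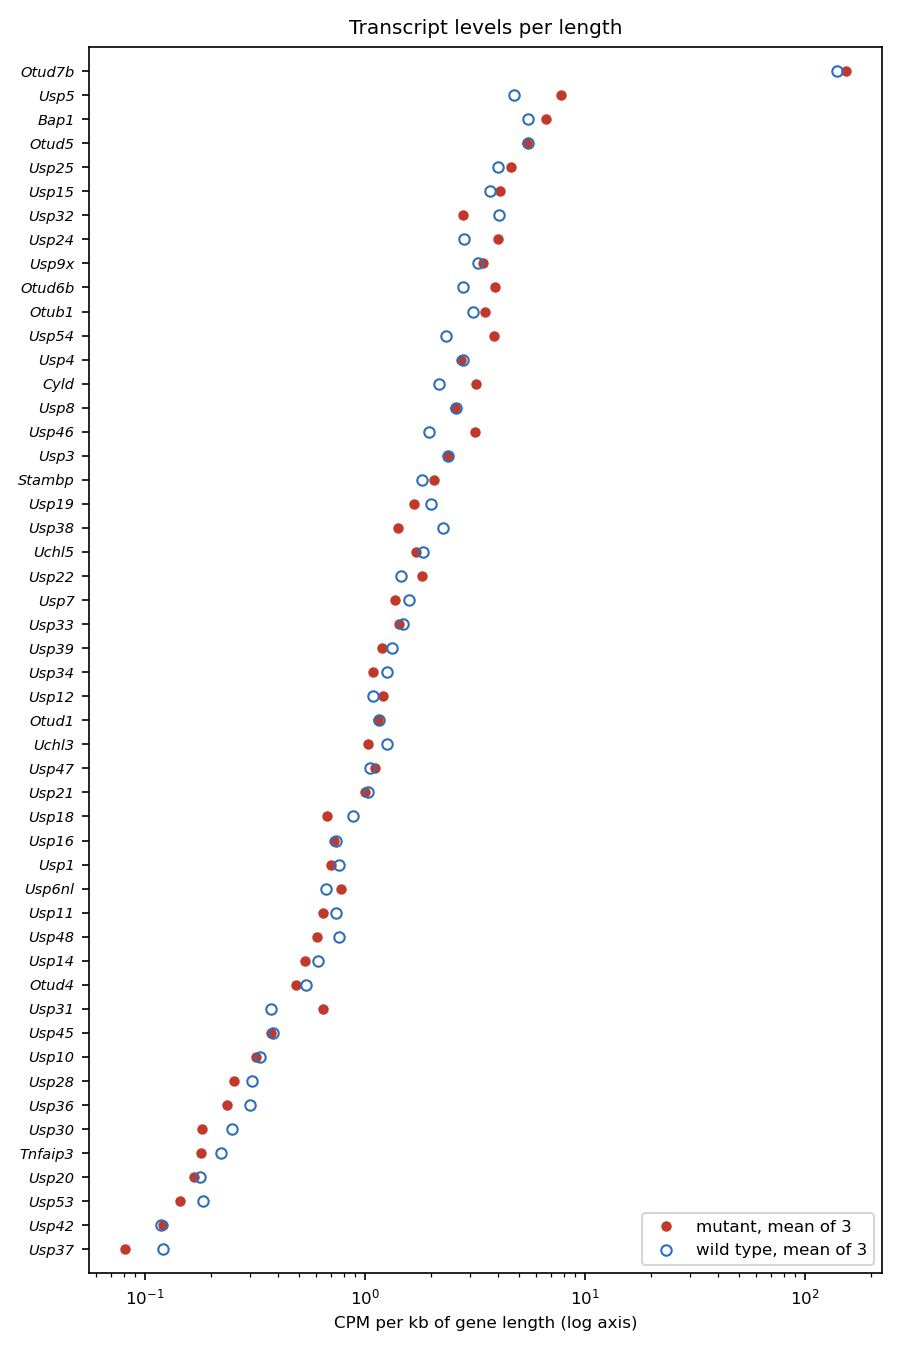
Mean level of each of the 50 genes in CPM per kb of deposited gene length, on a log axis, in 3 mutant libraries (filled points) and 3 wild-type libraries (open points). Otud7b lies far to the right of the others at 153.4 CPM per kb in mutant and 139.0 CPM per kb in wild-type platelets, and Usp5 comes second.

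The family's share of counts was slightly higher in mutant libraries. Members took 0.161%, 0.161% and 0.163% of counts in mutant libraries of batches 1, 2 and 3, against 0.159%, 0.145% and 0.158% in wild-type libraries. Every mutant library was above every wild-type library, a difference that was not tested. Without Otud7b the shares were 0.0395%, 0.0374% and 0.0452% in mutant and 0.0381%, 0.0342% and 0.0441% in wild-type libraries, which overlapped although the mutant was the higher in each batch. In bulk RNA, fewer cells of a type and less RNA per cell cannot be told apart.

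In mutant platelets 7 of the 50 genes were higher and 2 lower by the edgeR quasi-likelihood test at a Benjamini-Hochberg adjusted p of 0.05, taken over all 9822 genes, and 41 did not pass. These shares, 14% higher and 4% lower, stand beside 12.9% higher and 9.16% lower of all genes tested (22.1% in either direction). Usp31, Usp54, Usp5, Usp46, Cyld, Usp24 and Otud6b rose, and Usp38 and Usp32 fell. The median LFC of the 50 was -0.02, beside -0.04 over all genes. Within batches 1, 2 and 3 the medians of the family were -0.06, -0.06 and 0.05, beside -0.02, -0.02 and -0.01 over all genes. Mutant libraries lay wholly above wild-type libraries for 10 of the 50 genes (20%, beside 20.4% of all genes) and wholly below for 6 (12%, beside 15.9%, and 36.3% of all genes in either direction). All 9 called genes were among these 16. The 41 genes that did not pass had LFCs of -0.56 to 0.30 and edgeR adjusted p-values of 0.102 to 0.994.

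**Figure D2:**
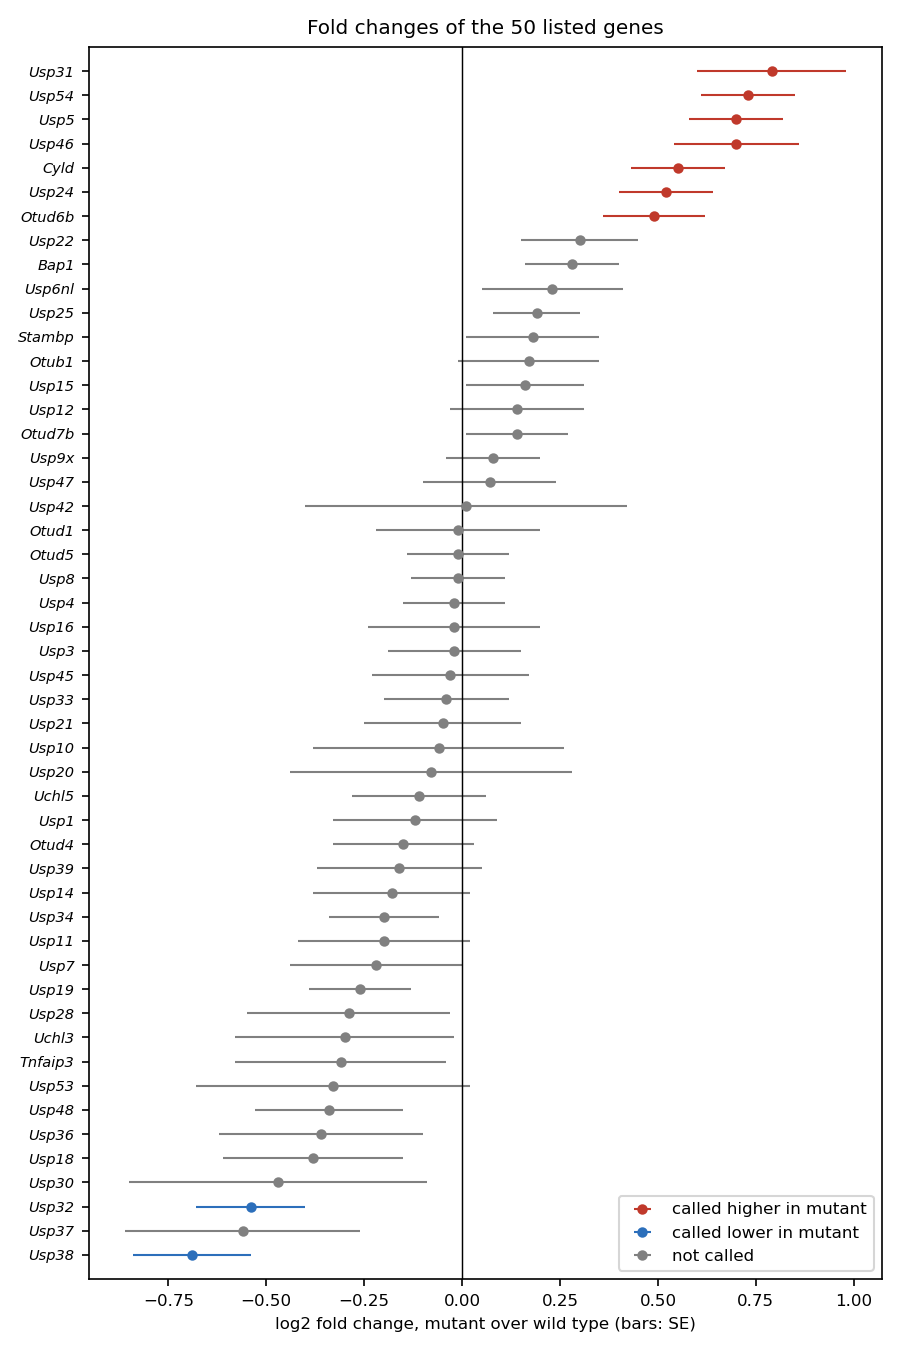
LFC (log2 fold change, mutant over wild type) of the 50 genes with its standard error from the edgeR fit over all 9822 genes. The 7 genes called higher lie between 0.49 and 0.79, Usp32 and Usp38, called lower, at -0.54 and -0.69, and the 41 others between -0.56 and 0.30.

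All 9 called genes had a mean of at least 5.16 CPM. Of the 41 not called, 16 were as abundant as that and 25 were less abundant. Among genes averaging 5 CPM or more, a limit chosen after the values were seen, 36% of 25 members were called, beside 36.8% of 4267 genes. The standard error of an LFC ran from 0.11 to 0.41 over the 50 genes, so that smaller differences in the least abundant ones were not detectable at this depth. Across the 50 members the LFC and the log2 mean CPM had a Spearman correlation of 0.54, and 0.28 across all genes. It was 0.03 with log2 gene length over the members and 0.10 over all genes. These genes share the same 6 libraries, and the values are descriptions.

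**Figure D3:**
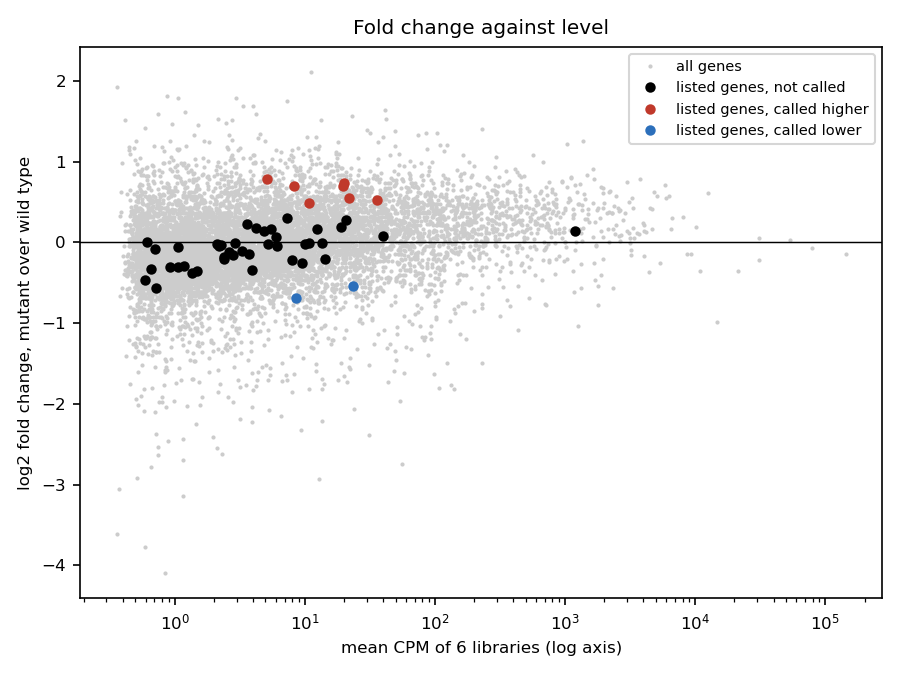
LFC (log2 fold change, mutant over wild type) against the mean CPM of the 6 libraries on a log axis, for all 9822 genes (grey) and the 50 deubiquitinase genes (black, red where called higher, blue where called lower). The 9 called genes sit at 5.16 CPM and above, and Otud7b is the black point at the far right.

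Among genes that recycle ubiquitin, Usp5 (Entrez 22225, chromosome 6, 124815019 to 124829484) rose. Usp5, also named isopeptidase T, takes apart ubiquitin chains that are attached to no protein. It had 25.5, 25.7 and 22.6 CPM in mutant libraries of batches 1, 2 and 3, against 14.9, 15.3 and 15.1 CPM in wild-type libraries. Every mutant library stood well above the wild-type ones, which were nearly equal. The LFC came to 0.70 ± 0.12 (edgeR adjusted p = 0.000177, range 4.1e-17 to 0.0176 over 20 alternatives with other tools, scalings, filters or libraries left out), or 1.63-fold. The proteasome-bound Usp14 had 2.23 ± 0.129 CPM in the mutant and 2.54 ± 0.487 CPM in wild-type pools (SD over 3 pools each). Uchl5, its partner there, had 3.15 ± 0.179 CPM in mutant pools and 3.41 ± 0.0452 CPM in wild-type pools. LFCs were -0.18 ± 0.20 for Usp14 and -0.11 ± 0.17 for Uchl5, and neither passed (adjusted p = 0.583 and 0.695 by edgeR). Uchl5 was nevertheless lower in mutant libraries without overlap. Uchl3, which frees ubiquitin from small adducts, had -0.30 ± 0.28 (edgeR adjusted p = 0.491). Usp14 shares 1870 bases of its span with Thoc1, so its value is uncertain.

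Of 13 members grouped under innate and NF-kB signalling, 3 rose (23.1%, beside 12.9% of all genes), namely Usp31, Usp46 and Cyld. The grouping is loose, since Usp46 is placed there by its relation to Usp12 and Usp38, described with the genes that fell, is placed elsewhere. Cyld (Entrez 74256, chromosome 8, 88696878 to 88751946) encodes the cylindromatosis tumour suppressor, which removes signalling ubiquitin chains and restrains NF-kB. It had 27.8, 24.3 and 26.4 CPM in mutant libraries of batches 1, 2 and 3, against 19.5, 16.4 and 17.7 CPM in wild-type libraries. The genotypes did not overlap, and the ratio was nearly the same in each batch, at 0.51, 0.56 and 0.57 on the log2 scale. It had an LFC of 0.55 ± 0.12 (edgeR adjusted p = 0.00191). Without batch 2 it was 0.50 and did not pass (edgeR adjusted p = 0.0718, the highest of 20 alternatives, the lowest being 1.74e-11).

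Usp31 (Entrez 76179, chromosome 7, 121642021 to 121707461), reported in human cells to act on NF-kB, had the largest fold change of the family. It had 7.27, 5.68 and 6.64 CPM in mutant libraries of batches 1, 2 and 3, against 4.91, 3.53 and 2.94 CPM in wild-type libraries. No library overlapped, and wild-type batch 1 was the highest of its group. The fitted LFC was 0.79 ± 0.19 (edgeR adjusted p = 0.00411, range 1.54e-09 to 0.0296), or 1.73-fold, and within batches it was 0.56, 0.67 and 1.15.

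Usp46 (Entrez 69727, chromosome 5, 73998726 to 74068411) encodes an enzyme that WD-repeat partners activate and that acts on glutamate receptors in neurons. It had 12.2, 8.58 and 9.75 CPM in mutant libraries of batches 1, 2 and 3, against 7.42, 6.11 and 5.33 CPM in wild-type libraries. The genotypes did not overlap, with batch 1 the highest in both. The LFC was 0.70 ± 0.16 (edgeR adjusted p = 0.00395, range 2.19e-10 to 0.0567), and without mutant replicate 1 it was 0.50 and did not pass (0.0567).

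The remaining 10 members of that group did not pass. Usp25, which acts in cytokine and antiviral signalling, had 20.8, 19.4 and 20.5 CPM in the mutant and 18.4, 17.6 and 17.3 CPM in wild-type libraries of batches 1, 2 and 3. These did not overlap, the LFC was 0.19 ± 0.11 (edgeR adjusted p = 0.269), and the gene passed with the batch as a block (0.0469 by edgeR, range 0.0469 to 0.881). Tnfaip3, which encodes the NF-kB inhibitor A20, was low, at 0.829 ± 0.0605 CPM in the mutant and 1.02 ± 0.209 CPM in wild-type pools (SD over 3 pools each), and had an LFC of -0.31 ± 0.27 (edgeR adjusted p = 0.473). Usp18, which removes the ubiquitin-like protein ISG15, had 1.27, 1.14 and 1.15 CPM in the mutant and 1.58, 1.62 and 1.45 CPM in wild-type libraries, without overlap. Its LFC of -0.38 ± 0.23 did not pass (edgeR adjusted p = 0.265). Otud5, an inhibitor of interferon induction, had 14.0, 13.5 and 13.1 CPM in the mutant and 14.8, 12.0 and 14.1 CPM in wild-type libraries, which overlapped, with an LFC of -0.01 ± 0.13 (edgeR adjusted p = 0.962).

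**Figure D4:**
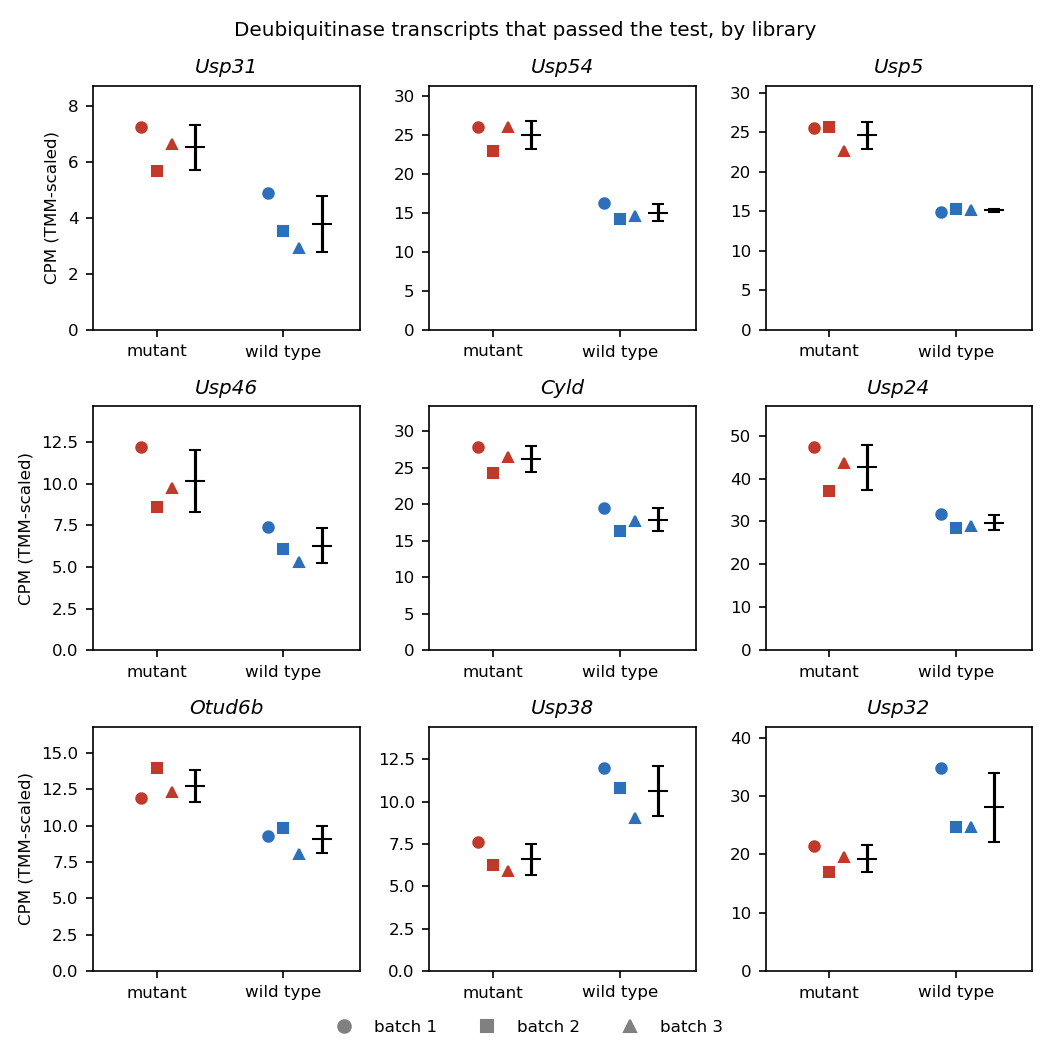
TMM-scaled CPM of the 9 genes that passed the test, by library, with mutant libraries left of wild-type libraries, symbols for the 3 batches, and bars for the mean and SD of 3 libraries. No panel shows an overlap between genotypes, and Usp5 has nearly equal wild-type values of 14.9, 15.3 and 15.1 CPM.

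Usp54, Usp24 and Otud6b rose as well. Usp54 (Entrez 78787, chromosome 14, 20548912 to 20644491) had the smallest p of the family. It had 26.1, 23.0 and 26.1 CPM in mutant libraries of batches 1, 2 and 3, against 16.3, 14.3 and 14.6 CPM in wild-type libraries. The gap between the genotypes was wider than either group's spread. The LFC was 0.73 ± 0.12 (edgeR adjusted p = 0.000155, range 7.73e-19 to 0.00695), or 1.66-fold.

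Usp24 (Entrez 329908, chromosome 4, 106315980 to 106446613), among the longest members by deposited length, had 47.3, 37.0 and 43.6 CPM in mutant libraries of batches 1, 2 and 3, against 31.7, 28.5 and 29.0 CPM in wild-type libraries. All mutant values were higher, and batch 2 was the lowest of both groups. Fitting gave an LFC of 0.52 ± 0.12 (edgeR adjusted p = 0.00343, range 1.5e-11 to 0.0855). It did not pass without mutant replicate 1 (0.40, adjusted p = 0.0716) or without batch 1 (0.45, 0.0855, both by edgeR). With the batch as a block, the fit without batch 1 gave 0.45 and passed (edgeR adjusted p = 0.000571).

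Otud6b (Entrez 72201, chromosome 4, 14809505 to 14826413), an OTU protease whose loss causes a developmental syndrome in humans, had 11.9, 14.0 and 12.3 CPM in mutant libraries of batches 1, 2 and 3, against 9.31, 9.85 and 8.04 CPM in wild-type libraries. The lowest mutant value exceeded the highest wild-type one. The LFC came to 0.49 ± 0.13 (edgeR adjusted p = 0.0118, range 1.06e-06 to 0.192), the smallest of the called rises. The call was lost without mutant replicate 2 (adjusted p = 0.158), without batch 1 (0.0689), without batch 2 (0.192) and with library size alone (0.0515, all by edgeR), at LFCs of 0.37, 0.52, 0.44 and 0.41. With the batch as a block, the call was kept without batch 1 (edgeR adjusted p = 0.000157). Usp9x, the X-linked relative that stabilises many growth and survival proteins, had 43.5, 37.2 and 42.2 CPM in the mutant and 42.9, 38.3 and 35.3 CPM in wild-type libraries, which overlapped. It had an LFC of 0.08 ± 0.12 (edgeR adjusted p = 0.702).

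Usp38 and Usp32 fell. Usp38 (Entrez 74841, chromosome 8, 80980724 to 81015013), reported to restrain antiviral signalling, had 7.61, 6.25 and 5.90 CPM in mutant libraries of batches 1, 2 and 3, against 12.0, 10.8 and 9.04 CPM in wild-type libraries. Every mutant library was below every wild-type one, and the batches kept the same order in both genotypes. The fitted LFC was -0.69 ± 0.15 (edgeR adjusted p = 0.00264, range 2.44e-10 to 0.0345).

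Usp32 (Entrez 237898, chromosome 11, 84984437 to 85140281), a membrane-bound enzyme that acts on the endosomal GTPase Rab7 in human cells, had 21.5, 16.9 and 19.5 CPM in mutant libraries of batches 1, 2 and 3, against 34.9, 24.7 and 24.7 CPM in wild-type libraries. The genotypes did not overlap, and wild-type batch 1 stood well above the rest. The LFC was -0.54 ± 0.14 (edgeR adjusted p = 0.00857, range 6.53e-11 to 0.073). The call was lost without wild-type replicate 1 (-0.40, adjusted p = 0.0623), without batch 1 (-0.48, 0.0626) and without batch 3 (-0.62, 0.073, all by edgeR). With the batch as a block, the call was kept without batch 1 (edgeR adjusted p = 0.000145). Other members of the endosome and trafficking group did not pass, namely Stambp, Usp8, Usp10, Usp20, Usp33 and Usp6nl. Usp8 and Stambp both act on receptors at sorting endosomes. Usp8 had 10.7 ± 0.174 CPM in the mutant and 10.8 ± 0.446 CPM in wild-type pools (SD over 3 pools each). Stambp had 4.45 ± 0.534 CPM in mutant pools and 3.93 ± 0.477 CPM in wild-type pools. Their LFCs were -0.01 ± 0.12 and 0.18 ± 0.17 (adjusted p = 0.951 and 0.508 by edgeR).

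Of the 15 members grouped under chromatin and DNA repair 0 passed in either direction by edgeR (beside 22.1% of all genes) or DESeq2 (beside 20.7%). DESeq2 gave no adjusted p for Usp42. These backgrounds were not matched to the group's level, and edgeR called 36.8% of all genes averaging 5 CPM or more. By limma-voom 0 passed as well, beside 1244 genes higher and 862 lower of all 9822. At an unadjusted edgeR p under 0.05, 1 member was higher and 0 lower, beside 1818 and 1402 of the 9822 genes. With the batch as a block in edgeR, Bap1 and Usp22 were higher and Usp48 lower (13.3% and 6.67%, beside 22% and 18% of all genes). Bap1 (Entrez 104416, chromosome 14, 31251352 to 31259930) removes ubiquitin from histone H2A. It had 23.0, 23.5 and 21.3 CPM in mutant libraries of batches 1, 2 and 3, against 17.8, 20.6 and 17.6 CPM in wild-type libraries, with no overlap. The LFC was 0.28 ± 0.12 (edgeR adjusted p = 0.102), with the block 0.28 (0.00161 by edgeR and 0.035 by DESeq2, range 0.00161 to 0.538). Without batch 1 the LFC was 0.19 and the gene did not pass with the block (0.178) or without it (0.538, both edgeR adjusted p).

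Usp22 (Entrez 216825, chromosome 11, 61151781 to 61175059), the deubiquitinase of the SAGA coactivator complex, had 9.02, 8.21 and 6.86 CPM in the mutant and 6.34, 6.40 and 6.75 CPM in wild-type libraries of batches 1, 2 and 3. The difference was largest in batch 1, with log2 ratios of 0.50, 0.35 and 0.02. Fitting gave an LFC of 0.30 ± 0.15 (edgeR adjusted p = 0.163), and it passed with the block in edgeR (0.0186) but not in DESeq2 (0.23). Without batch 3 it was 0.45 and passed (0.0269), and without batch 1 it was 0.15 and did not pass with the block (0.459) or without it (0.686, all edgeR adjusted p). It shares 1390 bases of its span with Tnfrsf13b and its value is uncertain. Usp48, whose libraries overlapped between genotypes, had an LFC of -0.34 ± 0.19 (edgeR adjusted p = 0.215, and 0.0375 with the block, range 0.0375 to 0.522).

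Usp7, Usp1 and Otub1 overlapped between genotypes. Usp7, which acts on p53 and its ligase Mdm2, had 6.90, 5.47 and 9.79 CPM in the mutant and 7.54, 6.86 and 11.3 CPM in wild-type libraries of batches 1, 2 and 3. Batch 3 was the highest in both genotypes, with an LFC of -0.22 ± 0.22 (edgeR adjusted p = 0.543). Usp1, which acts on DNA repair and replication proteins, had -0.12 ± 0.21 (0.734), and Otub1, which binds and inhibits E2 enzymes, had 0.17 ± 0.18 (0.548, both adjusted p by edgeR). Usp37 had 0.583 ± 0.128 CPM in the mutant and 0.865 ± 0.116 CPM in wild-type pools (SD over 3 pools each) and did not overlap, but its LFC of -0.56 ± 0.30 did not pass (edgeR adjusted p = 0.208). Cnot9 lies wholly within the span of Usp37, so that value is uncertain. Spans of Usp15, Usp34, Otud1, Usp16 and Usp45 also overlap a tested gene, those of the 9 called members do not.

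Among the others, Usp19, an enzyme anchored in the endoplasmic reticulum, had 9.28, 8.29 and 8.49 CPM in the mutant and 10.1, 9.69 and 11.5 CPM in wild-type libraries of batches 1, 2 and 3. It was lower in each mutant library without overlap, had an LFC of -0.26 ± 0.13 (edgeR adjusted p = 0.179), and passed with the block (0.0191 by edgeR, range 0.0129 to 0.441). Usp30, which counters mitophagy at the mitochondrial outer membrane, lay at 0.505 ± 0.213 CPM in the mutant and 0.690 ± 0.304 CPM in wild-type pools (SD over 3 pools each), with an LFC of -0.47 ± 0.38 (edgeR adjusted p = 0.423). Usp39 had -0.16 ± 0.21 (0.639), and the low Usp53 and Usp42 had -0.33 ± 0.35 (0.550) and 0.01 ± 0.41 (0.994, all adjusted p by edgeR).

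With the batch as a block, edgeR called 10 of the 50 genes higher and 4 lower, or 20% and 8%, beside 22% and 18% of all genes (40% in either direction). The same 9 genes were among them, and the 5 added were Usp22, Bap1, Usp25, Usp19 and Usp48. The blocked edgeR fit without batch 1, added after the data were seen, called 7 members higher and 3 lower, beside 15.6% and 14.4% of all genes (30% in either direction). Of the 5 added genes Usp19 passed in it (adjusted p = 0.0129), and Bap1 (0.178), Usp22 (0.459), Usp25 (0.306) and Usp48 (0.134) did not. DESeq2 with the same block called 9 members higher and 2 lower, beside 17.8% and 10.3% of the genes it tested (28.1% in either direction). Without the block DESeq2 called 7 members higher and 2 lower, beside 12.6% and 8.15% of the genes it tested (20.7% in either direction). Without batch 1 and without the block edgeR called 5 members higher and 1 lower, beside 5.98% and 6.21% of all genes (12.2% in either direction). The calls lost were Otud6b, Usp24 and Usp32, and each passed in the blocked edgeR fit without batch 1 (adjusted p = 0.000157, 0.000571 and 0.000145). All 7 genes that rose were higher in the mutant of every batch, and the 2 that fell were lower in every batch. Their lack of overlap between genotypes entails this, so it adds no evidence. Of the 50 members 11 were higher in every batch and 14 lower, beside 2922 and 3063 of all 9822 genes.

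**Figure D5:**
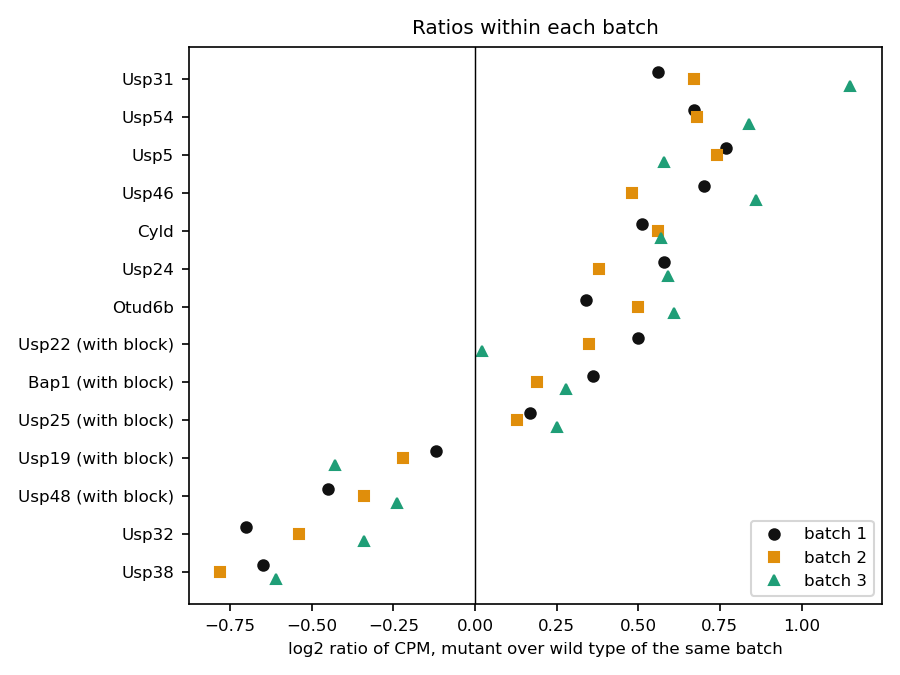
Log2 ratio of CPM, mutant over wild type of the same batch, for the 9 called genes and the 5 that the block added in edgeR. All ratios of the 7 rises lie at 0.34 or above, those of Usp38 and Usp32 at -0.34 or below, and Usp22 in batch 3 is at 0.02.

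Sequence before the annotated starts is given as a description of the called genes. RefSeq windows were held for 38 of the 50 genes (41 windows, GRCm38.p6), and the 250 bases before each window's start were searched on both strands for the GC box GGGCGG, the ETS core CGGAAG and the GATA site AGATAA, the last pair being letters bound by megakaryocyte factors. The GC box was in 75.6% of the members' windows, beside 57.7% of the windows of genes in the tables and 32.7% of all 32851 windows. The ETS core was in 39.0%, beside 26.2% and 13.6%, and the GATA site in 2.44%, beside 6.02% and 9.99%. Of the 7 windows of called genes 6 held the GC box, 3 the ETS core and 0 the GATA site. Members' windows had a median GC content of 64.8%, beside 60% for genes in the tables. Shown, 5′ to 3′, are the called genes whose window reaches at least 100 bases beyond the gene's RefSeq span, cut to those bases, with any of the 3 motifs in capitals. They are Usp46 at chr5:74068412-74068661 (- strand), Usp31 at chr7:121707462-121707692 (- strand), Cyld at chr8:88696778-88696877 (+ strand) and Usp38 at chr8:81015014-81015156 (- strand). Usp46, Usp31 and Cyld rose and Usp38 fell, and each held at least 1 GC box.
Usp46: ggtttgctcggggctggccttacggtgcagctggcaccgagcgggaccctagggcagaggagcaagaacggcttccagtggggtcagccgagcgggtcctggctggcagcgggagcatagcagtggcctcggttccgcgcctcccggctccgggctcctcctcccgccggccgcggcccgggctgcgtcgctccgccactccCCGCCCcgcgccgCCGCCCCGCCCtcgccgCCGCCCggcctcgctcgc
Usp31: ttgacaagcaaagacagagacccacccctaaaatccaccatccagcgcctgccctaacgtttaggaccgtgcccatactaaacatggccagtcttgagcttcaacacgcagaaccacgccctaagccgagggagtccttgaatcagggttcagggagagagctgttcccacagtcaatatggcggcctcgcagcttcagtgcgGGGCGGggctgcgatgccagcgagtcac
Cyld: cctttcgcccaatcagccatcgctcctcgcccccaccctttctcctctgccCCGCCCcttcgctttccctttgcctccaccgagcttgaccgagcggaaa
Usp38: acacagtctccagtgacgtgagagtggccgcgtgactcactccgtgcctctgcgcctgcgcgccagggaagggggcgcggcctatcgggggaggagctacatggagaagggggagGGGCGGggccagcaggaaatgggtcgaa

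The wider ubiquitin pathway was read from 91 further genes, of which 83 were in the tables. Of these 14 were higher and 3 lower, or 16.9% and 3.61%, beside 12.9% and 9.16% of all genes, with a median LFC of 0.03. With the block 21 were higher and 8 lower, or 25.3% and 9.64%, beside 22% and 18% of all genes. Of 5 ubiquitin and E1 genes, the polyubiquitin gene Ubb rose to 1406.1 ± 168 CPM in mutant, against 808.5 ± 131 CPM in wild-type pools (SD over 3 pools each), with an LFC of 0.80 ± 0.14 (edgeR adjusted p = 0.000262). Rps27a, which encodes ubiquitin fused to a ribosomal protein, fell to 2.51 ± 0.230 CPM in mutant, against 4.66 ± 1.16 CPM in wild-type platelets. The LFC came to -0.89 ± 0.20 (edgeR adjusted p = 0.00292), and copies of ubiquitin and of ribosomal protein genes elsewhere in the genome make both values uncertain.

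Of 29 ubiquitin E2 enzymes 5 rose (17.2%, beside 12.9% of all genes), among them Ube2q2 (LFC 0.65), Ube2e1 (0.62), Ube2j1 (0.44) and Ube2q1 (0.37). Of 30 partner subunits 6 rose (20%, beside the same 12.9%). Foxk2, which binds Bap1, had 0.76, Atxn7l1 0.56, Rnf11, a partner of A20, 0.48, and Atxn7l3, the subunit that activates Usp22, 0.44. Of 19 genes in a list of other deubiquitinases and related proteins, 2 rose and 2 fell (10.5% each, beside 12.9% and 9.16% of all genes). Mindy1 rose to 298.5 ± 12.8 CPM in mutant, against 214.6 ± 21.5 CPM in wild-type pools (SD over 3 pools each), an LFC of 0.48, and Yod1, an OTU protease by another name, had 0.67. Josd1 had -0.48 and Eif3h, a translation initiation subunit that shares the JAMM fold, -0.34. Leaving out a library or batch ended calls, with the largest p of all alternatives in brackets, for Eif3h in 7 of 9 (0.334), Ube2q1 in 6 (0.233), Atxn7l3, Ube2e1 and Yod1 in 5 each (0.228, 0.151 and 0.219), Mindy1, Rnf11 and Ube2j1 in 4 each (0.121, 0.147 and 0.121), Josd1 in 2 (0.0741) and Atxn7l1 and Ube2q2 in 1 each (0.0541 and 0.109). Ubb, Rps27a and Foxk2 passed in all 9 such fits.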

How the data were processed

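The authors deposited raw counts for Entrez genes together with a length for each, per the file headers. CASAVA 1.8.2, Subread, featureCounts and mm10 are listed in the submitters' processing notes, without settings. The values show that each of the 9822 genes passed 0.5 CPM in 3 or more libraries. Names and coordinates of 9636 genes were looked up in RefSeq's GRCm38.p6 gene table. The library kit does not mark strand, so genes with overlapping spans are uncertain. The test was edgeR 4.0.16 under R 4.3.3 (TMM, robust quasi-likelihood, genotype only, two-sided, Benjamini-Hochberg over all genes), and filterByExpr removed 0 genes. SEs are the absolute log2 fold change over the root of F. Ratios within batches used CPM plus 0.1. Alternatives were other scalings and filters, DESeq2 1.42.0, limma-voom (limma 3.58.1), the batch as a block, a gene-length offset (loess, span 0.5) and each library or batch left out. A blocked fit without batch 1 was added after the data were seen. The fits were run on simulated counts with a common dispersion and no batch effect, which cannot show how they treat batches.

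Each batch held 1 pool per genotype and the design text ties the pools to preparation days, so the batch is taken as pairing them. The main test did not use this pairing, and only the blocked fits did. The common coefficient of variation between libraries in edgeR was 14.2% with genotype only and 5.73% with the block. Departures from the genotype means correlated at 0.431, 0.271 and 0.482 within batches and at most at -0.0104 between them. Such departures cancel over the libraries of a genotype, so positive values within batches entail negative ones between them. The contrast is thus partly fixed by construction. Same-genotype libraries all differed beyond counting noise (mean chi-square per gene 14.5 or more). Members and lists were chosen with earlier results of these data known. Named were Nxf1, each member called with or without the block, the 5 highest and 3 lowest members per kb, those of 20 deubiquitinases fixed by name that are in the tables, and up to 4 called genes per companion list.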

Additional observations from a re-analysis of the deposited data

How the results depend on the processing

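Of the 9 called genes, Usp31, Usp54, Usp5 and Usp38 kept their call in every alternative run for them, and the other 5 lost it in at least 1, with no change of sign in any of the 9. Members called higher numbered 5 to 8 over the 9 fits that left out 1 library or batch, and members called lower 1 to 2. Calls over all genes fell too, to 5.98% higher and 6.21% lower without batch 1, from 12.9% and 9.16% with all libraries. Shares of all genes were not taken for the other such fits. Companion genes called higher numbered 2 to 14 and lower 1 to 4 in the same 9 fits, and the members' median log2 fold change ran from -0.13 to 0.00. It was -0.11 with library size alone. With the batch as a replicate block edgeR called 4 members and 8 companions lower, DESeq2 called 5 companions lower, and the blocked edgeR fit without batch 1 called 7 members higher and 3 lower and 6 companions lower. The block ended no call among the 9 members.

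Restricting the test to genes averaging 10 CPM or more left 3017 genes, and library totals and TMM factors were recomputed from these alone. The log2 fold changes of these genes moved by a median of -0.17. Of the 15 members tested there 5 were higher and 1 lower, and of the 37 companions 8 were higher and 10 lower. Usp38, called lower with all genes, and Usp31 and Usp46, called higher, were under the limit and not tested there. The other called members kept their calls. The share of all genes called under this limit was not taken. The log2 fold change had both signs over the alternatives in 20 of the 50 members, none of the 9 called. With all libraries or in the blocked fit without batch 1 the sign changed, among members named with values, for Otud7b (-0.02) and Usp9x (-0.09) among genes of at least 10 CPM, Otud5 with the length offset (0.01), Usp42 with upper-quartile factors (-0.04), library size alone (-0.08), limma-voom (-0.07) and the length offset (-0.01), and in the blocked fit without batch 1 Otub1 (-0.04) and Stambp (under 0.01 in size, below 0). In fits with a library or batch left out the log2 fold change ran from -0.14 to 0.05 for Otud5, from -0.53 to 0.44 for Usp42, from -0.01 to 0.31 for Stambp, from -0.47 to 0.04 for Usp7, from -0.04 to 0.36 for Otub1, from -0.01 to 0.11 for Usp9x, from -0.34 to 0.03 for Usp39 and from -0.43 to 0.08 for Nxf1. The causes were not tested. Low counts limit the precision of members under 1 CPM.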

Other observations

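Neighbours of the 9 called genes were read after their values were seen. For each called gene the 2 tested genes nearest to its span were taken. Of these 18 neighbours 2 were higher and 1 lower in mutant platelets, beside 12.9% and 9.16% of all genes. Tpi1, which encodes a glycolytic enzyme, lies 861 bases from Usp5 and had a log2 fold change of 0.89 (edgeR adjusted p = 2.45e-05). Cdca3, 46 bases from Usp5, had 0.34 (0.509). The noncoding RNA Dancr, 24649 bases from Usp46, had -2.09 (0.000295), opposite in sign to Usp46. Tmem64, 439407 bases from Otud6b, had 0.77 (0.000985). How neighbours relate to the members' values was not tested.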
